A study of Mus musculus with 6 samples.

Results

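The 6 genes described here, Evx1, Gbx2, Nkx6-1, Six2, Gsc and Irx3, are homeobox genes that lie outside the Hox clusters. They were chosen because windows nearest to their start sites appear in the authors' deposited tables of methylation differences, so their presence there is not a result. Over the 3 tables, 11 different windows carried one of these 6 symbols, of 2135 windows in all. The 11 windows fall into 7 places in the genome, since windows overlap.

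The study profiled DNA methylation by reduced representation bisulfite sequencing (RRBS), which reads CpG-rich fragments cut by MspI, in sorted GFP-positive cells from mouse bone marrow. All groups derive from C57BL6 bone marrow immortalised with HoxA9, a homeobox factor that keeps myeloid progenitors dividing, and were carried in irradiated recipient mice. The IDH1wt group (2 libraries) was transduced with pSF91-IDH1wt-IRES-EGFP and the IDH1mut group (2 libraries) with pSF91-IDH1mut-IRES-GFP, named R132C in the authors' table. The R-2HG group (2 libraries) carried empty vector, and its mice received 1 mg of R-2HG a day over 4 weeks. The IDH1wt and IDH1mut cells were sorted 4 weeks after transplantation. The vector and the R-2HG given to the mice both set the R-2HG group apart from IDH1wt, and likewise from IDH1mut. Their effects cannot be told apart in either comparison. Whether a group's 2 libraries stem from different mice is not stated in the labels, and no gene expression was measured in this series, so the cell type was not checked against markers.

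Homeobox genes encode transcription factors that bind DNA through a homeodomain and set position and cell identity in the embryo. In cells that do not use them, many carry Polycomb marks over CpG-rich starts, and such starts are among the places where methylation is often gained in cancer. R-2HG, the product of mutant IDH1, competes with 2-oxoglutarate at the TET enzymes, which begin the removal of DNA methylation. Evx1 marks the primitive streak and spinal interneurons and lies beside the HoxA cluster. Gbx2 positions the boundary between midbrain and hindbrain, and Nkx6-1 is needed for motor neurons and insulin-producing beta cells. Six2 maintains kidney nephron progenitors, Gsc is a repressor of the gastrula organiser, and Irx3 is an Iroquois factor of neural tube and limb patterning.

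Each value below is a difference in percent methylation between 2 groups over a window of 500 bp, in percentage points, as the authors computed it. No level per library or per group was analysed here, so no spread between replicates stands beside them, and the only p-values and q-values are those the authors deposited. The tables hold windows with an absolute difference of at least 25 points and an authors' q of at most 0.00995, and the read depth is unknown. A gain means higher methylation in the group named first. The tables fix the directions relative to each other, but a reversal of all of them at once would fit the values equally well.

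Evx1 and Gbx2 were the 2 members with a window within 50000 bp of the start site. The 250 bases before their start sites are shown to give the CpG content of the nearest promoter, 5′ to 3′ from RefSeq (GRCm38.p6), with CpG dinucleotides in capitals. The Evx1 stretch is chr6:52313248-52313497 on the plus strand and the Gbx2 stretch chr1:89931177-89931426 on the minus strand; these positions are of another build than the mm9 windows and cannot be set beside them.
Evx1: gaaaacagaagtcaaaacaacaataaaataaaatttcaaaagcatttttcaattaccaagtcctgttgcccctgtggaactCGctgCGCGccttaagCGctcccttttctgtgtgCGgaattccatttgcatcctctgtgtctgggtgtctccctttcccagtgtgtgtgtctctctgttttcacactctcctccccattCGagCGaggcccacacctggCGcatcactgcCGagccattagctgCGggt
Gbx2: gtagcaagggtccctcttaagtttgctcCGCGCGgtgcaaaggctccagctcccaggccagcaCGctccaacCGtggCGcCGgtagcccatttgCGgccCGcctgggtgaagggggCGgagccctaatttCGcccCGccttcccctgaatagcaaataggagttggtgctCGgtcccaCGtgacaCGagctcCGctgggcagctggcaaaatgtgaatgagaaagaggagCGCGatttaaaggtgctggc
Evx1 had 10 CpGs and no CCGG, the site MspI cuts, while Gbx2 had 18 CpGs and 1 CCGG. CCGG, which reads the same on both strands, was in 47.1% of 32851 RefSeq promoter stretches of 250 bases, and the median number of CpGs was 6. The other 4 members had more CpGs than Evx1, from 13 at Irx3 through 22 at Gsc and 26 at Six2 to 30 at Nkx6-1. Judged by the distances to the mm9 start sites, no listed window reached the 250 bases before the start site of any member. If the start sites are the same in both builds, these promoters themselves have no listed value.

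Against IDH1wt, IDH1mut cells gained methylation near Six2, Gsc, Irx3 and Gbx2, and also had a loss near Gbx2. The authors' deposited table listed 6 windows of these 4 members, 5 gains and 1 loss, where 69.3% of all 1493 windows listed for this comparison were gains. R-2HG cells gained near Nkx6-1, Evx1, Six2 and Gbx2, while Irx3 had a loss. The authors' deposited table listed 6 windows of these 5 members, 5 gains and 1 loss, beside 68.0% gains among all 750 windows of that table. Set against IDH1mut, R-2HG cells were higher at Gbx2 and lower at Irx3. The authors' deposited table listed 4 windows of these 2 members, 1 gain and 3 losses, beside 35.5% gains among all 603 windows. The member windows differed by a median of 32.9, 32.7 and 36.8 points in absolute value in the 3 comparisons, beside 29.999, 29.2 and 29.1 points over all listed windows. With all tables read the other way round, the shares of gains over all windows are 30.7%, 32.0% and 64.5%, and the members' gains and losses change places likewise. The members were picked from these lists, and the 2 comparisons with IDH1wt share its libraries, so nothing is read from these shares or medians.

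**Figure D1:**
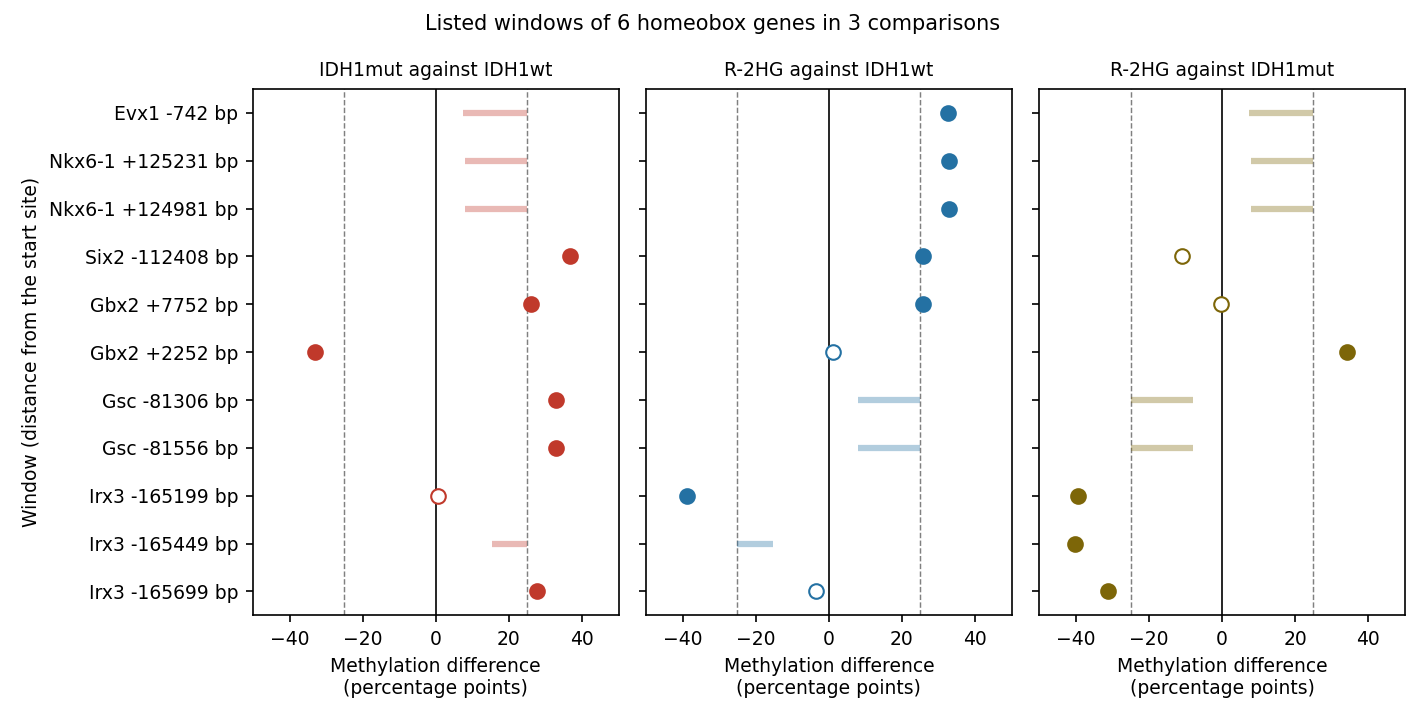
Methylation difference in percentage points (x axis) at each of the 11 member windows (y axis, gene and distance from the start site) in the 3 comparisons (panels). Filled points are the authors' values, open points were obtained by subtraction where the other 2 comparisons were listed, bars are the range left if a window missed only the 25-point threshold (dashed lines), and most filled points against IDH1wt lie on the side of gains, except Gbx2 at 2252 bp in IDH1mut and Irx3 in R-2HG.

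Evx1 was the only member with a window in the promoter range, from -2000 to 500 bp. The window (mm9 chromosome 6, 52262251 to 52262750) ended 742 bp upstream of the start site of NM_007966, on the side of Hoxa13. In R-2HG cells it was a gain of 32.5 points per the authors' deposited table, with an authors' p of 0. Of all 750 windows in that table, 33.9% had an absolute difference at least as large, and 13.3% lay in the promoter range, beside 18.1% for IDH1mut against IDH1wt and 19.1% for R-2HG against IDH1mut. Evx1 was not listed in the other 2 comparisons. If the window missed only the 25-point threshold there, IDH1mut lay between 7.48 and 25 points above IDH1wt, and R-2HG the same range above IDH1mut.

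Gbx2, read from NM_010262 on the minus strand, had 2 windows that behaved differently. The farther one (mm9 chromosome 1, 91819501 to 91820000) began 7752 bp downstream of the start site. It was a gain of 26.0 points in IDH1mut and of 25.6 points in R-2HG per the authors' deposited table for each comparison with IDH1wt. Subtraction gave R-2HG minus IDH1mut as -0.39 points, so the difference from the IDH1wt libraries was nearly equal in both groups. Over all genes 388 windows were in both lists, 26.0% of the list for IDH1mut and 51.7% of that for R-2HG, and both use the same IDH1wt libraries. The value for R-2HG was the smallest difference among the member windows, just inside the authors' threshold.

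The nearer Gbx2 window (mm9 chromosome 1, 91825001 to 91825500) began 2252 bp downstream of the start site. The gene spans 3215 bp in the RefSeq GRCm38.p6 annotation, a length that would take in this distance, while exon and intron are not given because no mm9 annotation was used here. In IDH1mut cells this window was a loss of -33.1 points against IDH1wt per the authors' deposited table. R-2HG cells were 34.2 points above IDH1mut per the authors' deposited table, with an authors' p of 0 in both comparisons. R-2HG against IDH1wt was not listed, and subtraction gave 1.07 points. At this window IDH1mut thus stood below both other groups, which lay close together, and the loss ran opposite to the gain further downstream.

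**Figure D2:**
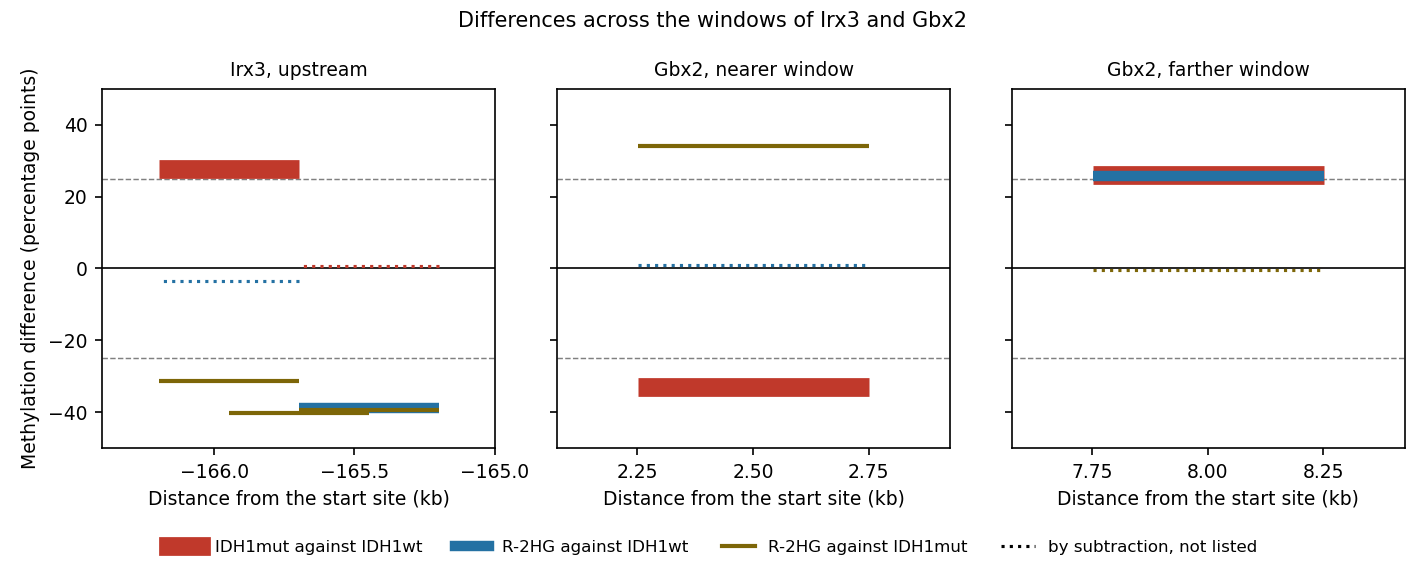
Methylation difference in percentage points (y axis) over the 500 bp windows of Irx3 and Gbx2, placed by distance from the start site in kb (x axis), with solid lines for the authors' values, dotted lines for values by subtraction and dashed lines at 25 points; line thickness only keeps overlapping comparisons visible. IDH1mut is above IDH1wt at one end of the Irx3 windows (27.7 points) and R-2HG below IDH1wt at the other (-38.8 points), while at the nearer Gbx2 window IDH1mut (-33.1 points) is set apart from IDH1wt and R-2HG.

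The windows of Six2, Gsc, Nkx6-1 and Irx3 all lay beyond 50000 bp from the start site, so each symbol says only which start site was nearest. Windows that far made up 31.1%, 31.2% and 24.4% of the lists for IDH1mut and for R-2HG against IDH1wt and for R-2HG set against IDH1mut. Of the 11 member windows, 8 were that distant.

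Six2 had a single window (mm9 chromosome 17, 86200001 to 86200500), 112408 bp upstream of the start site of NM_011380 and away from its neighbour Six3. It was a gain of 36.8 points in IDH1mut, the largest absolute difference from IDH1wt among the member windows of that comparison, per the authors' deposited table. In R-2HG cells the same window was a gain of 25.8 points per the authors' deposited table. Subtraction gave R-2HG minus IDH1mut as -11.0 points, below the 25 points needed to be listed. In IDH1mut 21.8% of all listed windows had an absolute difference at least as large as that of Six2, and in R-2HG 87.9% did.

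Gsc had 2 overlapping windows (mm9 chromosome 12, 105792751 to 105793500) from 81306 bp upstream of the start site of NM_010351, on the side of Dicer1. Both were gains of 32.9 points in IDH1mut per the authors' deposited table, identical within 1e-09 points, as 2 windows that hold the same CpGs would give. They count as 1 place. If these windows missed only the threshold in the other comparisons, R-2HG lay between 7.86 and 25 points above IDH1wt.

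Nkx6-1 likewise had 2 overlapping windows (mm9 chromosome 5, 101968001 to 101968750) with identical values, from 124981 bp downstream of the start site of NM_144955. Both were gains of 33.0 points in R-2HG against IDH1wt per the authors' deposited table, with an authors' p of 0. Under the same reading of an unlisted window, IDH1mut lay between 7.98 and 25 points above IDH1wt. Gsc and Nkx6-1 were each listed in 1 table alone, as were 1427 of all 2135 windows. Neither was listed for R-2HG against IDH1mut, so no difference between the 2 groups was called at either place.

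Irx3 had the most windows, 3 in a run 165199 to 165699 bp upstream of the start site of NM_008393, on the side of Irx5. The window nearest to the gene (mm9 chromosome 8, 94490751 to 94491250) was a loss of -38.8 points in R-2HG against IDH1wt per the authors' deposited table. R-2HG was also below IDH1mut there, by -39.4 points per the authors' deposited table, and subtraction put IDH1mut 0.60 points from IDH1wt. The farthest window (94491251 to 94491750) shares no base with it and showed another order of the groups. There IDH1mut was a gain of 27.7 points against IDH1wt and R-2HG differed from IDH1mut by -31.2 points per the authors' deposited table for each comparison. Subtraction put R-2HG at -3.51 points from IDH1wt. In the window nearest to the gene R-2HG stood apart from the other 2 groups, and in the farthest IDH1mut did.

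The middle Irx3 window (94491001 to 94491500) overlaps each of the others by 250 bp. It was listed for R-2HG against IDH1mut alone, with -40.3 points, the largest absolute difference among the member windows, per the authors' deposited table. If the comparisons with IDH1wt missed only the threshold, IDH1mut lay 15.3 to 25 points above IDH1wt and R-2HG between -25 and -15.3 points, so that IDH1wt would lie between the other groups.

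Evidence behind the Irx3 windows was unequal. The window nearest to the gene had an authors' p of 2.14e-06 (q 1.49e-05) for R-2HG against IDH1wt and 1.2e-06 (q 7.83e-06) for R-2HG against IDH1mut per the authors' deposited table for each. A q that large or larger was found for 9.87% and 5.14% of the windows in those lists. The farthest window had an authors' p of 7.77e-16 for IDH1mut against IDH1wt per the authors' deposited table. The remaining 13 of 16 member values had a p of 0 per the authors' deposited table for their comparison. A p of 0 was common in these lists. It was given for 70.9% of all windows for IDH1mut against IDH1wt, 68.7% for R-2HG against IDH1wt and 81.9% for R-2HG against IDH1mut.

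**Figure D3:**
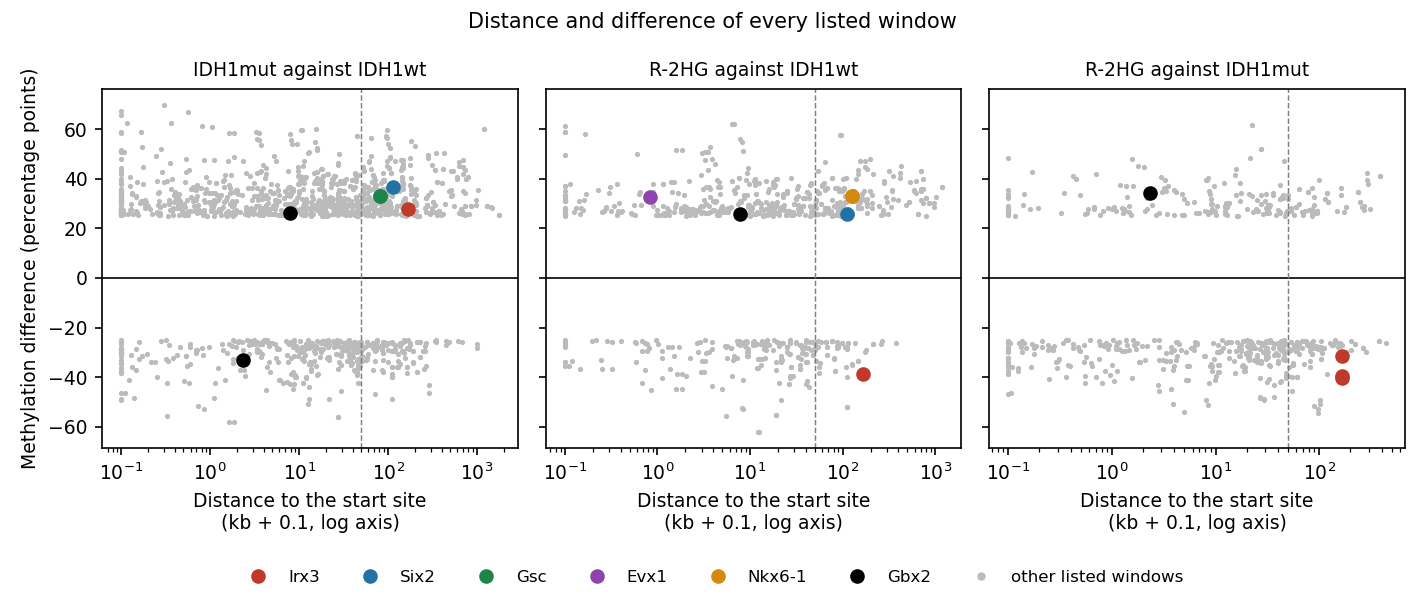
Distance of every listed window to its nearest start site in kb (x axis, log scale, with 0.1 kb added) against its methylation difference in percentage points (y axis) in the 3 comparisons; coloured points are the members, grey points all other windows, and the dashed line marks 50 kb. Evx1 at 742 bp and the 2 Gbx2 windows lie to the left of the line, the other members to the right, and all lie within the cloud of other windows.

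The surroundings of the members differed. Within 1000000 bp of the Irx3 windows no window of another gene was listed in any comparison. How many listed windows such a stretch holds elsewhere in the genome was not computed, so this absence is not read as unusual. Around Evx1, 13 windows of other symbols were listed for IDH1mut, 11 gains and 2 losses, and 5 for R-2HG, all gains, most of them in the HoxA cluster. The nearest of them for R-2HG against IDH1wt was a gain of 35.5 points at Hoxa6, 103001 bp from the Evx1 window. For IDH1mut it was a loss of -27.1 points at Hoxa11os, 67251 bp away, per the authors' deposited table for each. For R-2HG against IDH1mut 3 windows were listed, 1 gain and 2 losses. The nearest was a gain of 28.6 points at Hoxa10, 78251 bp away, per the authors' deposited table. The nearest window to that of Six2 in IDH1mut was a gain of 31.8 points assigned to Six3os1, 335001 bp away per the authors' deposited table. The Gsc windows had their nearest neighbour in IDH1mut at Clmn, a gain of 26.3 points 302251 bp away per the authors' deposited table. Around Nkx6-1 no other window was listed for R-2HG against IDH1wt, and the nearest in any comparison was at Agpat9, 594751 bp away, with -28.4 points for R-2HG against IDH1mut per the authors' deposited table. Near Gbx2, Iqca had a loss of -39.4 points in R-2HG against IDH1wt, 230751 bp from the nearer window, per the authors' deposited table. The same Iqca window was at -25.9 points for R-2HG against IDH1mut. In IDH1mut against IDH1wt, Ackr3 had gains of 29.9 and 28.4 points, from 273001 bp away, per the authors' deposited table.

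Among 172 homeobox genes outside the Hox clusters, the 6 members included, 14 were listed for IDH1mut against IDH1wt, 14 for R-2HG against IDH1wt and 7 for R-2HG against IDH1mut. These are 8.14%, 8.14% and 4.07% of the list, beside 3.38%, 1.75% and 1.46% of 21900 RefSeq protein-coding genes. Genes of the list were found by symbol alone and protein-coding genes by symbol or transcript, so the shares were not counted alike. The share of CpG-rich fragments that RRBS covered at each gene is unknown here, its part in these shares was not tested, and the members had been chosen from these tables. Without the 6 members, 10, 9 and 5 of 166 genes were listed, or 6.02%, 5.42% and 3.01%. For IDH1mut, 10 of the 14 genes had gains alone, 1 losses alone and 3 both. For R-2HG these numbers were 9, 4 and 1. For R-2HG against IDH1mut 3 genes had gains and 4 losses. Without the members, gains alone, losses alone and both were 7, 1 and 2 for IDH1mut and 5, 3 and 1 for R-2HG. For R-2HG against IDH1mut they were 2, 3 and 0. Of the windows of these other genes, 76.2%, 55.6% and 33.3% were gains, beside 69.3%, 68.0% and 35.5% of all listed windows. Gains and losses in these counts and shares change places under the other reading of direction. By class, 4 of 18 TALE genes, 3 of 13 HOXL genes outside the clusters, 6 of 38 PRD genes, 7 of 48 NKL genes, 1 of 6 SINE genes, 1 of 12 LIM genes, 1 of 14 POU genes and none of 23 CUT, HNF, PROS and ZF genes were listed in any comparison. Over the whole list this was 23 of 172 genes (13.4%), beside 4.72% of the protein-coding genes, and the classes were not compared by a test. The class counts include the members, and the 1 SINE gene listed was Six2. Without the members, 17 of 166 genes were listed in any comparison.

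Paralogues of 3 members were listed at other places. Gbx1, the paralogue of Gbx2, also had windows in both directions in IDH1mut, a gain of 29.8 points at 21667 bp and losses of -38.8 and -38.9 points at 16167 and 15917 bp downstream per the authors' deposited table. Nkx6-2, which acts with Nkx6-1 in the neural tube, gained 25 points in IDH1mut at 1447 and 1697 bp per the authors' deposited table, exactly at the authors' threshold. Irx1, an Iroquois gene of the other cluster, was a loss of -25.6 points in R-2HG against IDH1wt at -65331 and -65581 bp per the authors' deposited table. Of the Irx3 windows, only the one nearest to the gene was a listed loss in that comparison.

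Of the other listed homeobox genes, Dmbx1 and Hopx had windows shared by both comparisons with IDH1wt, as Six2 and Gbx2 did. Dmbx1 gained 29.3 points in IDH1mut and 29.6 in R-2HG at -32471 and -32721 bp per the authors' deposited table for each. Hopx, a homeodomain protein that does not bind DNA, gained 27.1 and 26.8 points at -26104 and -26354 bp, likewise per the authors' deposited table. Prrxl1 followed the pattern of the farthest Irx3 window, with 25.3 points in IDH1mut and -28.2 points for R-2HG against IDH1mut per the authors' deposited table for each, and subtraction left R-2HG -2.82 points from IDH1wt. Uncx resembled the Irx3 window nearest to the gene, with -28.3 points in R-2HG against IDH1wt and -28.1 against IDH1mut per the authors' deposited table for each, and subtraction left IDH1mut -0.18 points from IDH1wt. Another Uncx place, from 95151 bp downstream, was a gain of 25.1 points in R-2HG against IDH1wt per the authors' deposited table. Lbx2 and Pou3f1 had windows in which R-2HG was above both other groups. Against IDH1wt this was up to 27.6 points at 894 bp and 25.8 points at -17139 bp per the authors' deposited table. Meis1, the TALE cofactor of HoxA9, had the largest differences of the list, at separate places in IDH1mut per the authors' deposited table. Gains reached 44.6 points at 143223 bp downstream of the start site, beyond 50000 bp, while a loss of -42.4 points lay at 10973 bp. At the window of 44.6 points R-2HG differed from IDH1mut by -25.1 points per the authors' deposited table. Subtraction put R-2HG 19.5 points above IDH1wt there.

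The remaining genes were each listed in 1 comparison. Gains in IDH1mut were listed at Alx4 (up to 26.1 points, 37412 bp), Bsx (27.3 points, -2460 bp) and Meis2 (28.3 points, 48608 bp). A loss was listed at Noto (-28.8 points, -11380 bp), all per the authors' deposited table. In R-2HG, Barhl1 was a gain of 25.4 points at -27292 bp per the authors' deposited table. Dlx4 and Isl1 were losses of -25.6 and -27.7 points at -43887 and -104606 bp per the authors' deposited table. For Isl1, as for members that far, the symbol says only which start site was nearest. Evx1 in R-2HG was the only one of the 23 listed genes with a window between -2000 and 500 bp in any of the 3 comparisons. That is 0 of 27, 1 of 24 and 0 of 13 windows of the list, beside 18.1%, 13.3% and 19.1% of all listed windows, with no test of the difference.

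**Figure D4:**
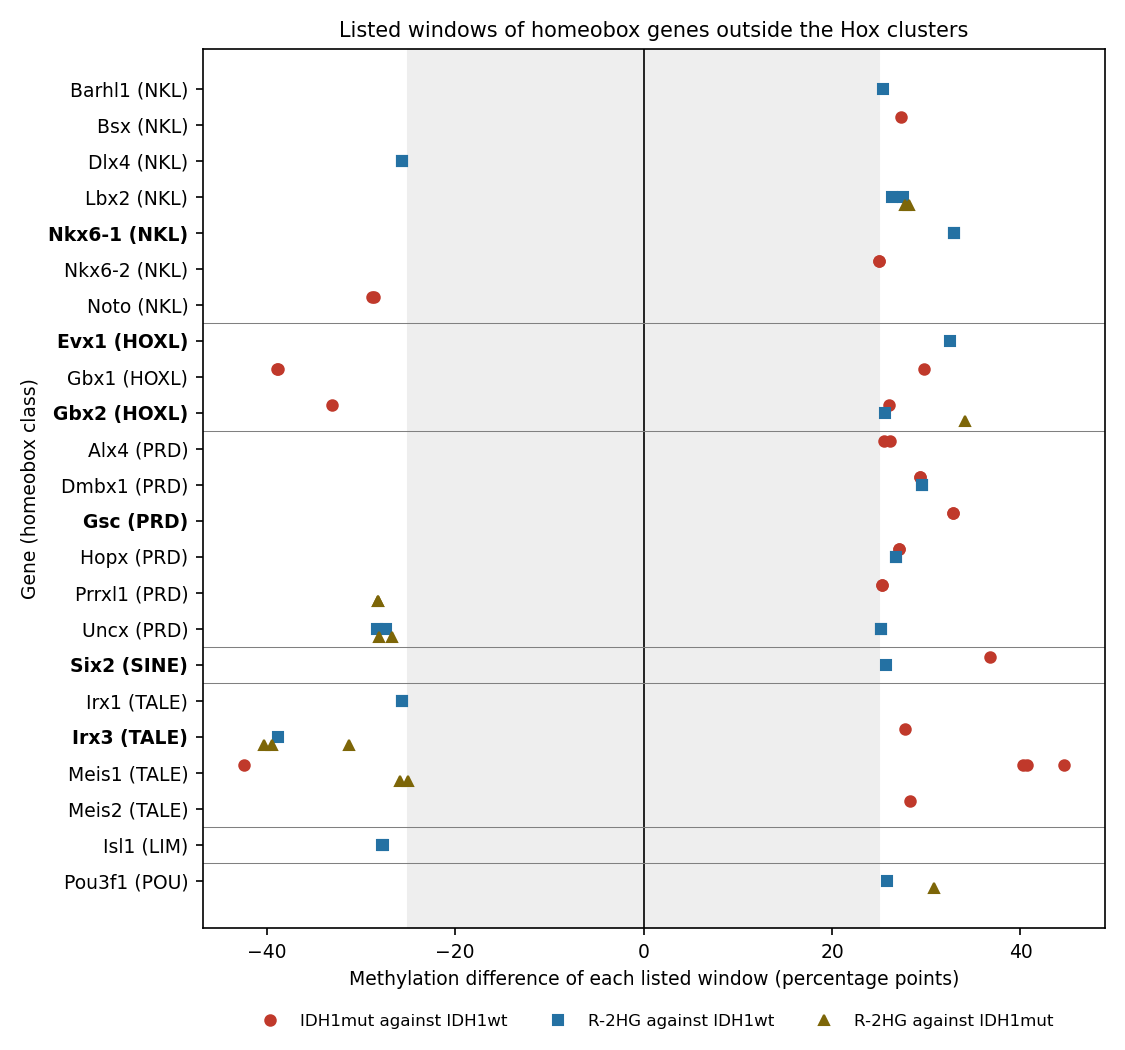
Methylation difference in percentage points (x axis) of every listed window of the 23 listed homeobox genes outside the Hox clusters (y axis, grouped by class, members in bold), with the range below the authors' 25-point threshold in grey. Circles, squares and triangles stand for the 3 comparisons; Gbx1, Gbx2, Irx3, Meis1, Prrxl1 and Uncx have points on both sides of 0.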

How the data were processed

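Per the submitters' processing notes, reads were handled with Trim Galore, BSMAP and methylKit 0.9.1 on mm9; their settings, the coverage filter and the test: not given in the sources used here. Deposited tables hold, per the file headers, a p-value and a q-value for each window, the methylation difference, which is a signed score in percentage points, and the other column used, the distance to the nearest start site. Windows were 500 bp long, 250 bp apart, and counted once per chromosome and start. Group differences alone are given, so depth per library is unknown, and no interval or replicate error can be given; p-values cover at most these libraries, whose spread may be technical.

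The 3 differences must add up. Of 4 sign orders 1 left a residual of 0 at the 3 windows in every table and kept all 705 windows in exactly 2 tables under 25 points; it reverses the table of IDH1wt with R-2HG. The overall direction was assumed from methylKit's order, treated minus control. Under that assumption the reversed table runs the other way, so the order does not hold in all 3 tables. Unlisted values were obtained by subtraction. The sign step and the joining of windows within 1000 bp were tested on simulated data. All 6 members were named, the other listed homeobox genes (at most 20), and the nearest listed window of another gene. Members, lists and rules were chosen with earlier results of these data known. Of 173 homeobox symbols of the list 172 matched RefSeq (GRCm38.p6), which served for names, order, span and promoters; all 6 members had a promoter. Another gene is not reported here and was left out of the list. Python 3.11.15 and pandas 2.3.3 were used. Alternatives were stricter thresholds, distance limits, joined windows, all rows and the reversed sign.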

Additional observations from a re-analysis of the deposited data

How the results depend on the processing

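With q at most 0.001, or with every deposited row counted, all counts of members stayed the same. With differences of at least 30 points, 3 member gains were left in each of the 2 comparisons with IDH1wt, and 5, 3 and 3 homeobox genes were listed for IDH1mut, for R-2HG (both against IDH1wt) and for R-2HG set against IDH1mut. Within 50000 bp of the start site 2, 2 and 1 member windows were left, of which 1, 2 and 1 were gains, and for R-2HG against IDH1wt 9 homeobox genes, down from 14. Counting promoter windows alone left 0, 1 and 0 member windows, 0, 1 and 0 gains, and 0, 1 and 0 homeobox genes. Joining windows within 1000 bp left 2 places for R-2HG against IDH1mut. The settings that lowered a count do so by construction, since they drop or join windows. With all tables read the other way round, every direction reverses. IDH1mut against IDH1wt then gives 33.1 and -26.0 at Gbx2, -32.9 at Gsc, -27.7 at Irx3 and -36.8 at Six2. R-2HG against IDH1wt gives -32.5 at Evx1, -25.6 at Gbx2, 38.8 at Irx3, -33.0 at Nkx6-1 and -25.8 at Six2, and R-2HG against IDH1mut gives -34.2 at Gbx2 and 40.3 at Irx3. No paired analysis was possible because the tables give differences between groups and no value per library; for the same reason no library could be left out, so both were not run.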

Other observations

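Windows that start 250 bp apart often carried the same difference, within 1e-09 points. This held for 183 of 551 such pairs in IDH1mut against IDH1wt, 100 of 274 in R-2HG against IDH1wt and 66 of 220 in R-2HG against IDH1mut. Among the members it held for 2 of 4 pairs, those of Gsc and Nkx6-1, while the 2 pairs of Irx3 windows differed in value.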
